A study of Mus musculus with 6 samples.

Results

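The genes described here encode the interferon gamma receptor, the kinases attached to it, a transcription factor that such kinases activate, and factors that the pathway induces or that restrain it. They are Ifngr1, Ifngr2, Jak1, Jak2, Stat3, Irf1, Batf2, Socs1 and Socs3, chosen by symbol, and all 9 are among the 13454 genes of the deposited table. RNA was measured in 6 libraries of lymphatic endothelial cells, the cells that line lymphatic vessels. They were sorted from B16-OVA-VEGFC tumours, a transplanted mouse melanoma line described in the series' design text as lymphangiogenic. The hosts of 3 libraries carried the label LEC-Ch25h KO, a deletion of Ch25h restricted to lymphatic endothelium, and those of the other 3 were littermates labelled LEC-CH25h WT. The libraries are called WT1 to WT3 and KO1 to KO3 by the numbers in their titles, where the knockouts are abbreviated HE without explanation, and means are given ± SD unless said otherwise. Cells of all 6 had been gated as CD31 and GP38 positive, with CD45-positive leukocytes left out. The enzyme encoded by Ch25h adds a hydroxyl group to cholesterol, giving 25-hydroxycholesterol. The transgene that drives the deletion, the age and sex of the mice and the number of animals behind a library are not stated in the labels.

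Interferon gamma binds a receptor of the chains IFNGR1 and IFNGR2, which carry the kinases JAK1 and JAK2. The kinases activate transcription factors that bind gamma-activated sites near their target genes, among them the gene of the transcription factor IRF1. SOCS1 and SOCS3 are induced by cytokine signalling and bind receptors or kinases to switch it off, SOCS1 mainly in interferon pathways and SOCS3 mainly in pathways of interleukin 6 and related cytokines. In endothelium, interferon gamma is known for inducing antigen presentation genes and chemokines.

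The libraries held between 36556824 and 46165273 reads in listed genes. Values are in CPM, the reads of a gene relative to its library total, scaled by the authors with a factor per library. Differences are knockout minus WT on the log2(CPM + 1) scale, with the standard error (SE) of limma, a linear model fitted over the 11980 genes averaging 1 CPM or more. Reads of Ch25h itself numbered 3786, 3725 and 4913 in WT1 to WT3 and 0, 1 and 117 in KO1 to KO3. It was the single gene that passed the threshold of 0.05 after adjustment over all genes, which is 0.00835% of those tested, while none of the 9 genes passed (0 of 9). Run on the recovered reads, DESeq2 called 0.0918% of genes and edgeR 0%, again with 0 of the 9. Ch25h was called by neither (adjusted p = 0.208 in DESeq2 and 0.84 in edgeR), with a log2 difference of -6.54 in both against -5.87 in limma. At an unadjusted p under 0.05, limma had 3 of the 9, Irf1, Batf2 and Socs1, and 5.41% of all genes. That was 648 genes, a count that fell to 252 without WT3 (2 of the 9) and 417 without KO3 (2 of the 9) and rose to 1289 without WT1 (3 of the 9). The count models had Irf1, Batf2 and Socs1 as well. All 3 had a lower mean in the knockout, as had 3.79% of all genes at that p. WT3 and KO3 stood at the ends of the first principal component, 33.7% of the variance, at -34.7 and 31.8. They touch several of the results that follow.

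The receptor chains differed little between libraries of either genotype. Ifngr1, the chain that binds interferon gamma, stood at 129, 151 and 143 CPM in WT1 to WT3 and at 140, 137 and 123.4 CPM in KO1 to KO3. Ifngr2, the chain that joins JAK2 to the complex, stood at 171, 145 and 131 CPM in WT and at 159, 148 and 147 CPM in the knockout, in the same order. The groups overlapped in both genes, and the highest library exceeded the lowest by 1.23 times for Ifngr1 and 1.31 times for Ifngr2. The log2 difference was -0.08 ± 0.13 for Ifngr1, with a 95% interval of -0.38 to 0.22 (limma, adjusted p = 0.98). For Ifngr2 it was 0.03 ± 0.14, with an interval of -0.29 to 0.34 (limma, adjusted p = 0.993). The exact permutation test, two-sided, gave p = 0.4 for Ifngr1 and p = 0.8 for Ifngr2, where 3 libraries against 3 cannot go below 0.1. The sign of the Ifngr2 difference turned without WT3 (-0.059) and without KO1 (-0.007). In bulk RNA, fewer cells of a type and less RNA per cell cannot be told apart, here and in the results below.

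The kinase genes had lower means in the knockout, with groups that overlapped. Jak1, whose kinase serves many cytokine receptors, stood at 442, 604 and 536 CPM in WT1 to WT3 and at 414, 527 and 478 CPM in KO1 to KO3. Jak2 stood at 43.6, 81.7 and 79.1 CPM in WT and at 32.4, 58.9 and 59.9 CPM in the knockout. In both genes WT1 and KO1 were the lowest libraries of their genotype. The log2 difference was -0.15 ± 0.16 for Jak1 (limma, adjusted p = 0.973; exact permutation p = 0.4), with a 95% interval of -0.52 to 0.21. For Jak2 it was -0.43 ± 0.29, with an interval of -1.08 to 0.23 (limma, adjusted p = 0.973; exact permutation p = 0.4). The Jak2 difference was -0.71 without WT1 and -0.14 without KO1, so its size rested on which libraries were compared.

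Stat3, a transcription factor activated by receptors of the interleukin 6 family, was slightly lower in the knockout and did not overlap between the groups. It stood at 342, 360 and 388 CPM in WT1 to WT3 and at 277, 312 and 323 CPM in KO1 to KO3. Means were 363 ± 23.3 CPM in WT and 304 ± 24.4 CPM in the knockout (n = 3). The log2 difference of -0.26 ± 0.13 did not pass (limma, adjusted p = 0.941; exact permutation p = 0.1, the smallest this design allows). All 3 knockout libraries lay below all 3 WT libraries in 3 of the 9 genes, Stat3, Irf1 and Batf2, and in 5.78% of all genes tested. The spread of Stat3 within a genotype was small, with the highest library 1.14 times the lowest in WT and 1.17 times in the knockout.

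**Figure D1:**
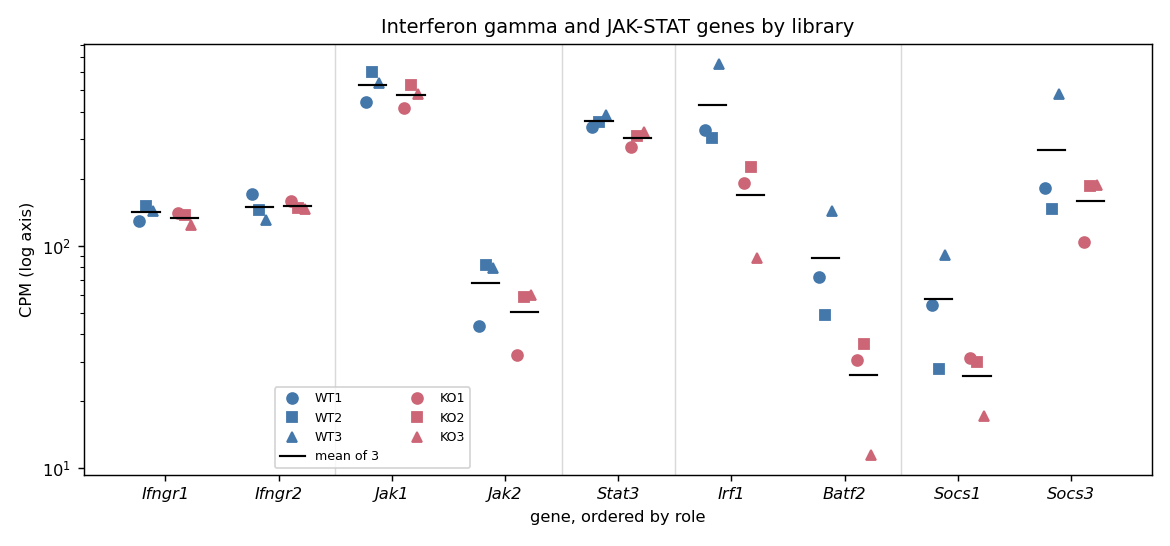
CPM on a log axis for each of the 9 genes, ordered as receptors, kinases, Stat3, induced factors and Socs genes. Points are libraries (blue WT, red Ch25h KO, symbols for library numbers) and bars are means of 3. The receptor genes lie between 123.4 and 171 CPM in all libraries, while Batf2 runs from 11.4 CPM in KO3 to 143.5 CPM in WT3.

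Of the 9 genes the induced transcription factors had the largest differences, and both had a lower mean in the knockout. Irf1, which switches on antigen presentation and other interferon-responsive genes, stood at 329, 303 and 657 CPM in WT1 to WT3. In KO1 to KO3 it stood at 191, 225 and 88.4 CPM. The groups did not overlap, but WT3 was at 2.17 times the lowest WT library, and KO2 at 2.54 times KO3. The Irf1 mean was 430 ± 197.5 CPM in WT and 168 ± 71.0 CPM in the knockout (n = 3), 2.56 times higher in WT. Its log2 difference was -1.36 ± 0.37, and it did not pass over all genes (limma, adjusted p = 0.836; unadjusted p = 0.00458; exact permutation p = 0.1). By unadjusted p it ranked 52 among the 11980 genes. Without WT3 and KO3, an alternative added once the values were known, the difference was -0.61.

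Batf2 encodes a basic leucine zipper factor that interferon gamma induces in macrophages and that partners with IRF1 there. It stood at 72.3, 48.9 and 143.5 CPM in WT1 to WT3 and at 30.6, 36.3 and 11.4 CPM in KO1 to KO3. As with Irf1, WT3 was the highest and KO3 the lowest of all, 12.5 times apart for Batf2 and 7.43 times for Irf1. The Batf2 mean was 88.2 ± 49.3 CPM in WT and 26.1 ± 13.1 CPM in the knockout (n = 3), 3.38 times higher in WT. The log2 difference of -1.72 ± 0.45 did not pass over all genes (limma, adjusted p = 0.836; unadjusted p = 0.00377; exact permutation p = 0.1). It was -1.30 without WT3, -1.23 without KO3 and -0.82 without both. Of all genes tested, 0.234% had a difference below that of Batf2 and 0.492% below that of Irf1.

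Both Socs genes had a lower mean in the knockout, with groups that overlapped. Socs1, which encodes an inhibitor of JAK kinases in interferon signalling, stood at 54.4, 27.9 and 90.4 CPM in WT1 to WT3 and at 31.2, 30.0 and 17.1 CPM in KO1 to KO3. WT2 fell among the knockout libraries. The Socs1 mean was 57.6 ± 31.4 CPM in WT and 26.1 ± 7.81 CPM in the knockout (n = 3). Its log2 difference was -1.01 ± 0.38 (limma, adjusted p = 0.836; unadjusted p = 0.0262; exact permutation p = 0.3). It ranged from -1.44 without WT2 to -0.61 without WT3, and was -0.34 without WT3 and KO3.

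Socs3, which encodes an inhibitor that docks on receptors of the interleukin 6 family, was set apart from the other induced genes by its order of libraries. It stood at 181.5, 146 and 477.5 CPM in WT1 to WT3 and at 104, 185 and 186 CPM in KO1 to KO3. KO3, the lowest library for Irf1, Batf2 and Socs1, was the highest of its genotype for Socs3. The mean was 268 ± 182 CPM in WT and 158 ± 47.3 CPM in the knockout (n = 3). The log2 difference of -0.60 ± 0.40 had a 95% interval of -1.50 to 0.29 (limma, adjusted p = 0.973; exact permutation p = 0.6). Without WT3 it was -0.09, so the lower mean in the knockout rested on that library.

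**Figure D2:**
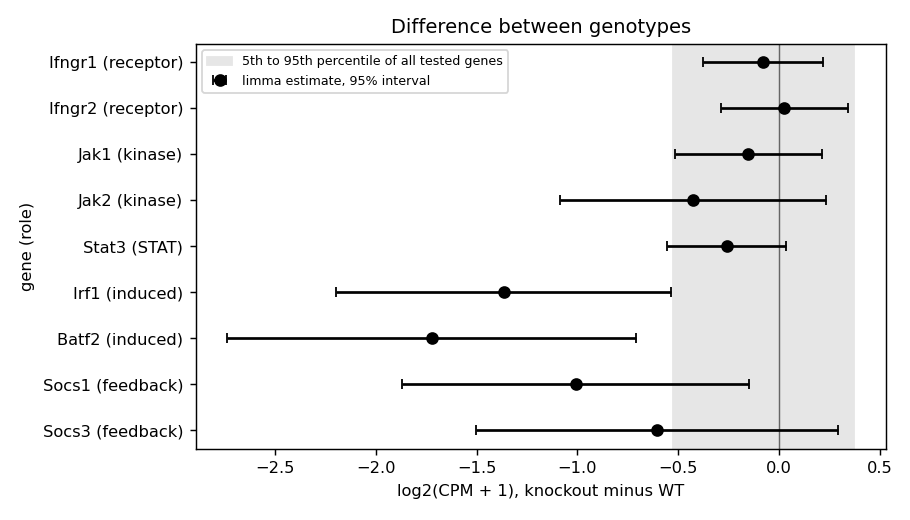
Difference in log2(CPM + 1), knockout minus WT, for each gene with the 95% interval of limma; the grey band spans the 5th to 95th percentile of all tested genes, -0.53 to 0.37. The receptor, kinase and Stat3 estimates lie inside the band, and those of Irf1, Batf2, Socs1 and Socs3 lie below it.

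Set against each other by role, the 4 receptor and kinase genes had a median log2 difference of -0.12, with 3 lower and 1 higher, and the 4 induced and feedback genes had a median of -1.19, with 4 lower. Over all 11980 genes the median was 0.00 and 50.4% had a lower mean in the knockout. The mean of the receptor and kinase genes, as a log2 deviation from the WT mean, stood at -0.18, 0.15 and 0.04 in WT1 to WT3. In KO1 to KO3 it stood at -0.31, -0.05 and -0.12. The mean of Irf1, Batf2, Socs1 and Socs3 stood at -0.18, -0.66 and 0.84 in WT and at -1.08, -0.76 and -1.69 in the knockout. The induced genes thus spread over a wider range than the receptor and kinase genes within each genotype as well as between them. Their distance from the receptor and kinase genes was 0.00 ± 0.81 in WT and -1.02 ± 0.48 in the knockout (n = 3), and WT2, at -0.81, lay below KO1 and KO2, at -0.77 and -0.72. This gap was described and not tested. It was -0.34 without WT3 and KO3.

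Over the 6 libraries, Irf1, Batf2 and Socs1 kept closer proportions to each other than to Socs3, a contrast that rested largely on KO3. The ratio of Socs1 to Irf1 CPM lay between 0.0922 and 0.193 over the 6 libraries, and that of Batf2 to Irf1 between 0.130 and 0.220. The ratio of Socs3 to Irf1 lay between 0.482 and 0.823 in 5 libraries and reached 2.11 in KO3. The ratio of Irf1 to Ifngr1 was 2.54, 2.002 and 4.60 in WT1 to WT3 and 1.36, 1.64 and 0.716 in KO1 to KO3. Transcripts of the induced factor therefore varied against a nearly level amount of receptor transcript.

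Per kilobase of exon, Irf1 had the highest mean level of the 9 genes in WT and not in the knockout. Its level was 108 ± 49.7 CPM per kilobase in WT and 42.3 ± 17.9 in the knockout, below Jak1, Socs3 and Ifngr1 there. Socs3 came next in WT, at 92.8 ± 63.0 CPM per kilobase against 54.8 ± 16.4 in the knockout. Jak1, the third in WT at 73.0 ± 11.3, was the highest of the 9 in the knockout at 65.4 ± 7.83. These 3 genes overlapped in WT.

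The middle of the order on the same scale was held by Ifngr1 (49.6 ± 3.91 in WT, 46.9 ± 3.15 in the knockout), Ifngr2 (39.5 ± 5.38 and 40.1 ± 1.75) and Stat3 (38.1 ± 2.45 and 31.9 ± 2.57). The lowest were Batf2 (35.0 ± 19.5 and 10.4 ± 5.17), Socs1 (19.8 ± 10.8 and 8.97 ± 2.69) and Jak2 (13.5 ± 4.23 and 10.0 ± 3.10). Jak1 exceeded Ifngr1 in each of the 6 libraries. Ifngr2, Stat3 and Batf2 overlapped in WT, and in the knockout Batf2, Jak2 and Socs1 overlapped. Exonic lengths are unions over annotated transcripts, from 2522 bases for Batf2 to 9527 bases for Stat3.

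Promoter sequences are printed for the 3 induced or feedback genes with a motif of the pathway near the start and for Ifngr1, a receptor gene with none. They are from RefSeq on GRCm38.p6, the build that mm10 names, and run from 250 bases before to 50 after an annotated transcript start, 5′ to 3′ on the gene's strand. Capitals mark matches to the gamma-activated site TTCNNNGAA, which reads the same on both strands, or to the interferon-stimulated response element GAAA, any 2 bases, GAAA on either strand. The regions are chr11:53769764-53770063 on the plus strand for Irf1, chr16:10785487-10785786 on the minus strand for Socs1, chr11:117969317-117969616 on the minus strand for Socs3 and chr10:19591699-19591998 on the plus strand for Ifngr1.
Irf1: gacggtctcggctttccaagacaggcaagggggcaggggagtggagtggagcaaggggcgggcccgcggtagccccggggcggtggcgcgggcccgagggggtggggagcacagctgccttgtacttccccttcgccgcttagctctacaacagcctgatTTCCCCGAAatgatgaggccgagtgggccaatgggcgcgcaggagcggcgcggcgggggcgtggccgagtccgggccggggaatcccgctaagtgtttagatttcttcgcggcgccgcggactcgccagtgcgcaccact
Socs1: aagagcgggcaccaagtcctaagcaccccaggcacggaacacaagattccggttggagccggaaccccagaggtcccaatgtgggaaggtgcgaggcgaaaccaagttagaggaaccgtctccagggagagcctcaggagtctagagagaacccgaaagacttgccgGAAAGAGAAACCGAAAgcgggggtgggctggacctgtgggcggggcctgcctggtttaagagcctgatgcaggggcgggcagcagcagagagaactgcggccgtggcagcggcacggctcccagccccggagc
Socs3: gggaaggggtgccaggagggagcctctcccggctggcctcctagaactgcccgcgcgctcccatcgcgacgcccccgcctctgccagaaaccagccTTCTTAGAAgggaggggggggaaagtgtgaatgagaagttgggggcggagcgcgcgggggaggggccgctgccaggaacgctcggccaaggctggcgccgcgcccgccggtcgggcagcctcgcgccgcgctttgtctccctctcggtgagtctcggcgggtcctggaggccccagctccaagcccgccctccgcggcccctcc
Ifngr1: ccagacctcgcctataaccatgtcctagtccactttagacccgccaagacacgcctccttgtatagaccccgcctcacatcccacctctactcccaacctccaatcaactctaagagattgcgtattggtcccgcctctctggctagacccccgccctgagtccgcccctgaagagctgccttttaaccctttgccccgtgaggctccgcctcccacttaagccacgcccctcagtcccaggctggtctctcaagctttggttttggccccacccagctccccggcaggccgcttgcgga

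The Irf1 window held 1 gamma-activated site, TTCCCCGAA, whose first base lies 90 bases before the start. Socs1 held 2 overlapping matches to the response element, GAAAGAGAAA and GAAACCGAAA, whose first bases lie 83 and 77 bases before the start. Socs3 held 1 gamma-activated site, TTCTTAGAA, at 154 bases before the start. A promoter was at hand for 8 of the 9 genes, Batf2 being the other one, and the windows of Ifngr1, Ifngr2, Jak1, Jak2 and Stat3 held neither motif. Among 8939 tested genes with a promoter, 8.28% held the gamma-activated site and 3.79% the response element. Irf1 has a further annotated start with no match in its window. A match is a run of letters and no measurement of binding.

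The genes nearest in pattern to Irf1, Batf2 and Socs1 included Gbp2 and Cxcl10, of the interferon gamma target list used below, and 5 genes outside that list, Irg1, Ifi47, Mgst1, Pla2g16 and Rasd1. Likeness was the root mean square difference of log2(CPM + 1), centred over the 6 libraries, among 9813 other genes averaging 5 CPM or more. Predicted genes and clones, told by their symbols, were left out of that set. Nearest to Irf1 were Irg1 (0.10), now named Acod1, which encodes the enzyme that makes itaconate, the GTPase gene Ifi47 (0.11) and the microsomal glutathione transferase gene Mgst1 (0.17). Irg1 stood at 71.3, 65.1 and 152 CPM in WT1 to WT3 and at 36.7, 50.8 and 16.3 CPM in KO1 to KO3. Nearest to Batf2 were Mgst1 (0.13), the GTPase gene Gbp2 (0.18) and Irg1 (0.19), with Irf1 itself at rank 6. Socs1 was nearest to the phospholipase gene Pla2g16 (0.11), the chemokine gene Cxcl10 (0.12) and Rasd1 (0.18). Cxcl10 stood at 346, 219 and 627 CPM in WT and at 236, 226 and 109 CPM in the knockout, with WT2 among the knockout libraries as for Socs1.

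Socs3 had as its nearest genes Zfp36, whose product destabilises cytokine transcripts, at a difference of 0.17, Gem (0.18) and the orphan receptor gene Nr4a1 (0.19). Zfp36 stood at 133, 131 and 390.5 CPM in WT1 to WT3 and at 87.2, 150 and 203 CPM in KO1 to KO3. By the same measure Irf1 ranked 5184 and Socs1 896 in likeness to Socs3. Zfp36 and Nr4a1 belong to a list of 16 genes that tissue dissociation is known to induce. That list, summed, ran from 3794 to 9012 CPM in WT and from 3828 to 6839 CPM in the knockout, and WT3 was its highest library, as it was for Socs3. Its part in the Socs3 result was not tested.

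**Figure D3:**
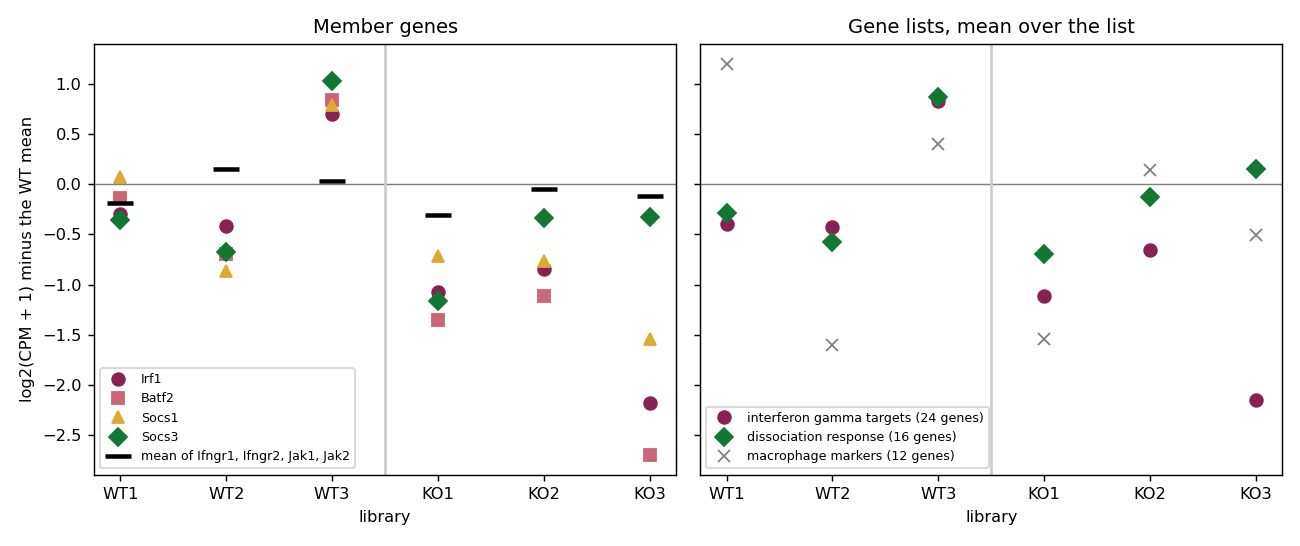
Log2(CPM + 1) minus the WT mean in each library, for Irf1, Batf2, Socs1, Socs3 and the mean of the receptor and kinase genes (left) and for the mean over 3 gene lists (right). In KO3, Irf1 (-2.18), Batf2 (-2.70) and the interferon gamma targets (-2.15) are at their lowest, while Socs3 (-0.32) and the dissociation list (0.15) are not.

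Of the other genes of the pathway, taken from lists, none of the 89 tested in the pathway and target lists passed over all genes (0 of 89 in limma). The counts by direction that follow stand beside 50.4% of all genes with a lower mean and 3.79% lower at an unadjusted p under 0.05. The lists were chosen with earlier results of these data known, so these counts carry no test. Of 15 cytokine receptor genes tested, 13 had a lower and 2 a higher mean (median log2 difference -0.17), and 4 were lower at an unadjusted p under 0.05. Those of smallest p were Lifr, the receptor of leukaemia inhibitory factor (63.3 ± 11.7 CPM in WT, 37.3 ± 5.55 CPM in the knockout), Il4ra (51.7 ± 9.22 and 30.1 ± 8.44 CPM) and Il13ra1 (55.0 ± 32.3 and 16.1 ± 13.5 CPM; n = 3). IL4RA and IL13RA1 pair to form a receptor of interleukins 4 and 13. The Il13ra1 groups overlapped, with WT1 at 30.4 CPM and KO2 at 31.1 CPM.

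Of 15 further STAT, JAK, IRF and BATF genes, 11 had a lower and 4 a higher mean (median -0.14), and 4 were lower at an unadjusted p under 0.05. Irf8, an interferon-responsive factor, had means of 599.5 ± 175 CPM in WT and 366 ± 70.4 CPM in the knockout (n = 3). Stat5b averaged 76.0 ± 11.9 and 56.2 ± 3.70 CPM, and Batf 3.93 ± 0.657 and 1.85 ± 0.689 CPM.

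Among 16 other negative regulators, 11 had a lower and 5 a higher mean, with a median of -0.06 and 0 at an unadjusted p under 0.05. Socs7 averaged 10.1 ± 3.503 CPM in WT and 7.22 ± 2.30 CPM in the knockout, Cish, a further feedback inhibitor, 6.29 ± 4.56 and 3.43 ± 0.645 CPM, and Socs4 8.85 ± 1.11 and 10.3 ± 1.91 CPM (n = 3). Summed, the 16 genes stayed between 977 and 1095 CPM in all 6 libraries. Socs1 and Socs3 thus lay lower than the median of the other inhibitors, a difference that was not tested.

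Known interferon gamma targets had lower means in the knockout throughout a list of 24 genes (median -1.16), and 23 of them were at an unadjusted p under 0.05, against 3.79% of all genes in that direction. None passed over all genes in limma (0 of 24), and the genes move together from library to library, so they are not 24 separate observations. The list was also chosen with earlier results of these data known, so its counts and median carry no test. Of smallest p were Gbp2 (921 ± 547 CPM in WT, 286 ± 148 CPM in the knockout), the class I transactivator gene Nlrc5 (90.8 ± 28.1 and 47.7 ± 12.6 CPM) and Ido1, a tryptophan-degrading enzyme gene (11.8 ± 13.7 and 0.837 ± 0.663 CPM; n = 3). DESeq2 called Ido1 and limma did not (adjusted p = 0.836). The groups did not overlap in 11 of the 24, with the knockout lower, as in 5.78% of all genes. Without WT3 and KO3 the median was -0.44 and 4 of the 24 genes were at an unadjusted p under 0.05. In the promoter windows, 8 of 15 target genes with a promoter held the response element and 5 the gamma-activated site. Among the 8939 tested genes with a promoter the shares were 3.79% and 8.28%. The difference was not tested.

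Targets of STAT3 went both ways: of 19 tested, 13 had a lower and 6 a higher mean, with a median of -0.11 and 3 lower at an unadjusted p under 0.05, against 50.4% of all genes with a lower mean and 3.79% lower at that p. The median ran from -0.25 without WT2 to -0.007 without WT3, and was 0.01 without WT3 and KO3. The 3 genes at that p were the transcriptional repressor gene Bcl6 (3.98 ± 0.911 CPM in WT, 1.69 ± 0.748 CPM in the knockout), Vegfa (21.6 ± 6.14 and 12.1 ± 5.16 CPM) and Fgl2 (361 ± 197 and 166 ± 126 CPM; n = 3). The difference between both target lists was not tested. Fgl2 overlapped between the groups, with KO2 at 309 CPM and WT1 at 179 CPM.

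Ligand transcripts were scarce. Of 14 ligand genes, of interferons, the interleukin 6 family and Il4, Il10 and Il13, 7 were found in the deposited table. Il4, Il10 and Il13 were not found there. These 7 summed to 11.7 to 37.0 CPM in WT and 10.2 to 18.3 CPM in the knockout. Osm was listed at 4.03, 1.12 and 4.26 CPM in WT1 to WT3 and at 0, 0.696 and 1.97 CPM in KO1 to KO3. Lif averaged 7.66 ± 8.12 CPM in WT and 2.55 ± 0.884 CPM in the knockout, and Il6 2.34 ± 1.83 and 1.13 ± 0.394 CPM (n = 3). In Lif, WT3 stood apart at 16.96 CPM. Ifng, the gene of the ligand itself, was not found under its symbol in the deposited table, and which genes were kept there is not stated.

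Markers of cells that make or answer interferon gamma are given for comparison. Lymphatic markers, 9 of 10 analysed, summed to 7944 to 10450 CPM in WT and 7147 to 9935 CPM in the knockout, and none was at 0 in any library. Of 12 T and natural killer cell markers 2 were found in the deposited table, and Cd3e, Cd3d and Cd3g were not. The 2 were Prf1 (32.4 ± 2.56 CPM in WT, 20.5 ± 3.20 CPM in the knockout) and Thy1 (161 ± 70.2 and 162 ± 30.6 CPM; n = 3). The groups did not overlap in Prf1, which encodes perforin, and its part in the results on Irf1, Batf2 and Socs1 was not tested. The 12 macrophage markers summed to 363, 28.7 and 185 CPM in WT1 to WT3 and to 39.2, 146 and 82.7 CPM in KO1 to KO3. Of these 12 genes 10 had a lower and 2 a higher mean in the knockout, the direction of Irf1, Batf2 and Socs1, with a median of -0.82 (-1.29 in edgeR) and 0 at an unadjusted p under 0.05. That median was -0.16 without WT1 and -1.72 without WT2. Csf1r, Ptprc and Emr1, now named Adgre1, were at 0 in at least 1 library. Ptprc, which encodes CD45, was 1 of the 2 with a higher mean in the knockout. It stood at 3.13, 0 and 0.994 CPM in WT1 to WT3 and at 0, 19.7 and 1.69 CPM in KO1 to KO3. Macrophages express Irf1, Batf2 and Socs1 too. WT2 was the lowest WT library for the summed markers and for Irf1, Batf2 and Socs1; in the knockout the markers were lowest in KO1 and these 3 genes in KO3, and in WT the markers were highest in WT1 and the 3 genes in WT3. The part of carried-over leukocytes in the results on Irf1, Batf2 and Socs1 was not tested. Blood endothelial markers (7 of 8 analysed) summed to 1697 to 2691 CPM in WT and 1229 to 1499 CPM in the knockout, fibroblast and mural markers (8 of 10) to 78.9 to 367.5 and 88.3 to 210.1 CPM, and melanoma markers (8 of 8) to 42.5 to 204 and 105 to 257 CPM. Of 5 blood endothelial markers tested, 4 had a lower and 1 a higher mean in the knockout, against 50.4% of all genes with a lower mean. Plvap, which made up most of their sum, averaged 1878 ± 558.5 CPM in WT and 1194 ± 110 CPM in the knockout. Flt1, Esm1, Sox17 and Vwf were scarce, averaging 1.29, 1.47, 0.505 and 0.712 CPM over the 6 libraries. Emcn went the other way, at 22.4 ± 7.03 CPM in WT and 33.7 ± 9.23 CPM in the knockout. Melanoma markers had a higher mean in the knockout in 7 of 8 genes (median 0.68).

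**Figure D4:**
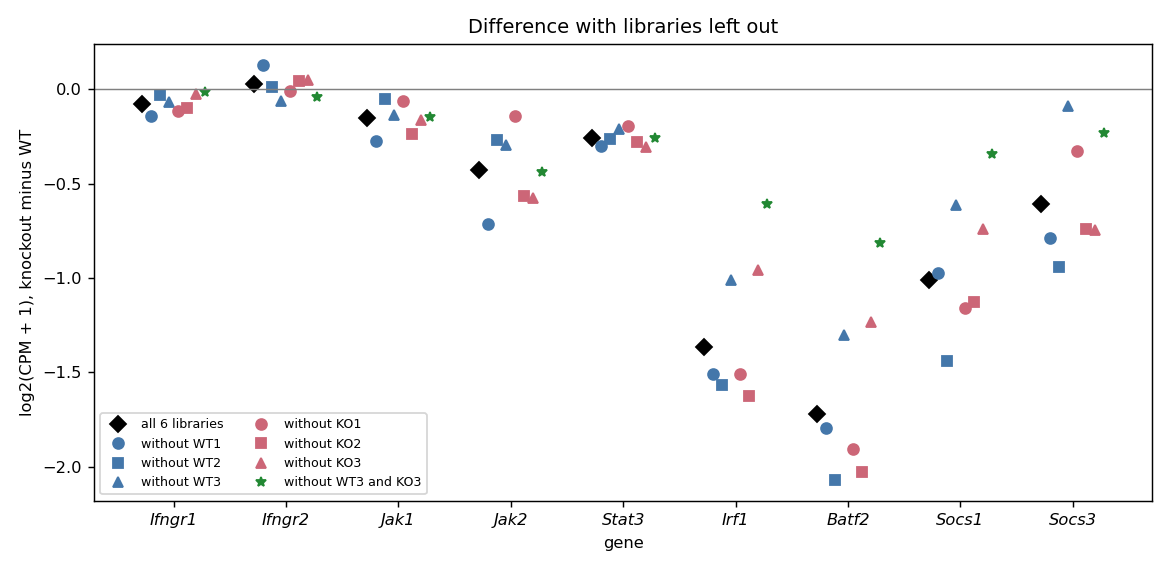
Log2 difference, knockout minus WT, of each gene with all 6 libraries (black), without each library in turn and without WT3 and KO3 (green star). Irf1 runs from -1.63 to -0.61 and Batf2 from -2.07 to -0.82, while Ifngr1 stays between -0.14 and -0.01.

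Positions are given on mm10 from GENCODE release M21 for the genes on which the results turn. Irf1 lies on chromosome 11 from 53770014 to 53778374 on the plus strand, Batf2 on chromosome 19 from 6140983 to 6172476 on the plus strand, Socs1 on chromosome 16 from 10782240 to 10785536 on the minus strand and Socs3 on chromosome 11 from 117966079 to 117970047 on the minus strand. Exons of Irf1 share 135 bases with the other-strand gene Gm17334, those of Batf2 share 51 bases with Arl2, those of Stat3 share 72 bases with Stat5a and those of Jak1 share 4 bases with Raver2. The library kit does not mark strand, so reads within those stretches cannot be assigned to one strand.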

How the data were processed

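Sorted CD45-negative, CD31- and GP38-positive cells were profiled with the SMART-Seq v4 and Nextera XT kits, per the labels' protocols. The submitters' processing notes name STAR 2.7.0, HTSeq 0.9.1, edgeR 3.26.8 and mm10, with no roles; how reads were assigned to genes and which genes were kept is not stated. The deposited signal per gene is on a CPM scale. Every value was a whole multiple of its library's smallest value above 0; divided by it, 100% were whole within 0.01 of a read, and the columns equal CPM scaled by TMM factors of 0.967 to 1.02. Groups come from genotype labels, library numbers from titles. The labels do not say whether the libraries are separate animals; p-values then reflect library-to-library spread alone, which may be technical. No 2 libraries agreed within counting noise.

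The main test was limma 3.58.1 (R 4.3.3) on log2(CPM + 1), group as the only term, variance prior with trend, Benjamini-Hochberg adjustment over the 11980 genes averaging 1 CPM or more; the scale understates changes of low genes. All 9 members passed that filter, with 454 to 30425 reads in each library. Members and lists were chosen with earlier results of these data known, so list counts and medians carry no test. Named are all members, up to 3 tested genes of smallest p of each list and the 3 genes nearest in pattern to Irf1, Batf2, Socs1 and Socs3. Some further list genes are named because they were scarce, at 0 or not found. Alternatives were pseudocounts 0.25 and 5, other filters and scalings, no variance trend, library weights, a replicate block, edgeR 4.0.16 and DESeq2 1.42.0 on recovered reads, and leaving out libraries. The limma fit was tested on simulated data.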

Additional observations from a re-analysis of the deposited data

How the results depend on the processing

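None of the 9 genes passed over all genes in limma, edgeR or DESeq2 or under any of the 18 alternatives; adjusted p ran from 0.149 to 1 for Irf1 and Batf2. Irf1, Batf2, Socs1, Socs3, Stat3, Jak1, Jak2 and Ifngr1 kept a lower mean in Ch25h KO in all 18, and Ifngr2 changed sign when WT3 (-0.059), KO1 (-0.007) or WT3 and KO3 together (-0.039) were left out; its range over single libraries left out was -0.059 to 0.131. The gap between induced and receptor genes, -1.02, ran from -1.42 to -0.62 with single libraries left out, and was -0.34 without WT3 and KO3, which was tried once the values were known. Over all genes, the count called was 1 in limma, 0 with a pseudocount of 0.25, 0 in edgeR (654 at an unadjusted p under 0.05) and 11 in DESeq2, and 0 to 3 with single libraries left out; the cause was not tested. Of the pathway and target genes DESeq2 called 1, Ido1. Same-numbered libraries were not uniformly alike: their deviations from the group means correlated at 0.24, -0.06 and -0.10. By the mean chi-square per gene between read counts, WT2 and KO2 (60.4) and WT1 and KO1 (62.9) were the closest of all pairs. WT3 and KO3 (253) were the furthest apart. With a replicate block 1 gene was called, and 850 genes, against 648, had an unadjusted p under 0.05, among them 4 of the 9 members against 3: Jak2 and Stat3 were added and Socs1 was lost (limma, adjusted p = 0.683 for each). With library weights these counts were 1945 genes and 6 of the 9, with Jak2, Stat3 and Socs3 added, and without WT3 and KO3 they were 164 genes and 2 of the 9. Reads carry no molecular identifiers, so counting error understates the error of low genes such as Batf and the ligands.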
